A study of Mus musculus with 2 samples.

Results

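The keratin genes are described here as they appear in an experiment on Tcf3 binding in mouse embryonic stem cells. Members were all array probes outside the control spots whose gene name in the array annotation is Krt followed directly by a digit, with the keratin-associated protein genes (Krtap) left out. The name rule gave 29 genes with 919 probes, of 17120 genes and 474380 probes in all. The annotation uses older keratin names, such as Krt2-8 for Krt8 and Krt1-18 for Krt18. Of the 29 names, 28 were matched through RefSeq as an older symbol of a current gene, and Krt2-18 was not matched and keeps its array name. Of the 919 probes, 26 are annotated to both Krt87 and a neighbouring gene, now Krt88. The name rule uses no measured value, but the family was selected on these same arrays with their set means and calls known, so its levels and calls are a description with no test.

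Keratins form the intermediate filaments of epithelial cells, and each filament is built from pairs of an acidic type I and a basic type II chain. Krt8 and Krt18 are the pair of simple, single-layered epithelia and are among the earliest keratins of the embryo, while Krt5 with Krt14 and Krt1 with Krt10 mark successive layers of the epidermis. The type I genes lie in a cluster on chromosome 11 and the type II genes in a cluster on chromosome 15, where the type I gene Krt18 sits beside Krt8. Tcf3 (current symbol Tcf7l1) belongs to the Tcf/Lef factors, which bind DNA and carry Wnt signals to genes, and it is known as a repressor in embryonic stem cells and in progenitor cells of the skin.

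Chromatin of feeder-free E14 cells, an established mouse embryonic stem cell line, was immunoprecipitated for Tcf3 according to the sample titles, while the protocols list several antibodies without assigning one to the arrays. The immunoprecipitate carries Cy5 and the input Cy3 on each of 2 Agilent promoter arrays, which hold different probes. No treatment, mutant or control immunoprecipitation is among the samples. All 29 keratin genes lie on array 2, so each rests on 1 array without a replicate, and no p-value is given. The input signal was well above background at 98.2% of the keratin probes and at 92% of all probes of array 2. The immunoprecipitate signal was well above background at 52.6% and 48.1%. In 432 keratin probes (47%) and in 51.7% of all array 2 probes, the Cy5 value is a surrogate that the scanner software wrote for a signal not above background.

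The value of a probe is the log2 ratio of Cy5 over Cy3, centred on the array's median, so that 0 is the typical probe. A set joins a probe to the closest one on either side, up to 1000 bp away. The highest set mean of a gene is given with the SD over the probes of that set, a measure of local scatter that says nothing of error between experiments. On array 2, a set of 3 probes could be called as bound from a set mean of 1.38, and a set of 2 probes from 1.69. These are lowest limits, since the calling rule also sets conditions on single probes. The arrays' coordinates are printed as deposited, and their build was not named in any source used here. Distances are counted in array coordinates from the RefSeq start site and are negative upstream.

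The probes of the highest sets of 2 keratin pairs, and of the 3 genes with the highest set means, are shown because the results turn on them. They are written on the plus strand, and capitals mark a match on either strand to CTTTGAA or to its variants that end in AT, TA and TT, letters of the kind Tcf/Lef factors recognise.
Krt8 probe 1, chr15:101991439-101991483: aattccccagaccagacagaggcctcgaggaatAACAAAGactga
Krt8 probe 2, chr15:101991594-101991638: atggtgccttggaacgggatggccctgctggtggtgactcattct
Krt8 probe 3, chr15:101991722-101991773: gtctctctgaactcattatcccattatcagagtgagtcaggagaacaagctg
Krt18 probe 1, chr15:102008928-102008977: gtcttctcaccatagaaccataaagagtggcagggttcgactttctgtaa
Krt18 probe 2, chr15:102009890-102009941: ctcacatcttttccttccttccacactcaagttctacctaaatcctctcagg
Krt18 probe 3, chr15:102010174-102010230: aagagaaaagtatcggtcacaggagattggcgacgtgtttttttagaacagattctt
Krt5 probe 1, chr15:101701272-101701331: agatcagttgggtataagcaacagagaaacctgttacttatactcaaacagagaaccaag
Krt5 probe 2, chr15:101701446-101701498: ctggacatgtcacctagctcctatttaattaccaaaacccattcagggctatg
Krt5 probe 3, chr15:101701567-101701620: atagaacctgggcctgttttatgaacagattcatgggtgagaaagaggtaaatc
Krt14 probe 1, chr11:100316882-100316932: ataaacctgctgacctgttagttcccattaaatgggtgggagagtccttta
Krt14 probe 2, chr11:100317002-100317046: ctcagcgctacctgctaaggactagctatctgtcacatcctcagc
Krt14 probe 3, chr11:100317128-100317179: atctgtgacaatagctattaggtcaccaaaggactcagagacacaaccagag
Krt2 probe 1, chr15:101809601-101809660: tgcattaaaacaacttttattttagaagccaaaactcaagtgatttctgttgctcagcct
Krt2 probe 2, chr15:101809741-101809799: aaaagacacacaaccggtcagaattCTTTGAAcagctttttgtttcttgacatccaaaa
Krt10 probe 1, chr11:99498498-99498557: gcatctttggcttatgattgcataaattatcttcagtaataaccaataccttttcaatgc
Krt10 probe 2, chr11:99498762-99498821: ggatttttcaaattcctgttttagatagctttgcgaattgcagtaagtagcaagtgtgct
Krt10 probe 3, chr11:99499064-99499123: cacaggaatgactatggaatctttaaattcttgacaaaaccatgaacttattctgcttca
Krt84 probe 1, chr15:101519770-101519829: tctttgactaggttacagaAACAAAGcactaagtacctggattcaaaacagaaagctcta
Krt84 probe 2, chr15:101520017-101520076: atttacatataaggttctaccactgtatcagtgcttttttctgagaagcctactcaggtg

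No keratin gene was called as bound with all spots. The count was 0 of 29, on an array where 5.5% of genes were called. With surrogates left out, so that only spots measured in both channels remain, it was also 0 of 29, beside 12.4% of genes on the array. The highest set means of the 29 genes ranged from -0.67 to 1.32 with a median of 0.63, and 5 genes exceeded 1. The median over all genes of array 2 was 1.07, and 33.4% of the 8432 genes with a set lay above the highest keratin gene. With measured spots, 8.73% of 8017 genes lay above the highest keratin gene, then at 1.70. Over all genes of chromosomes 11 and 15, where the members lie, the medians were 0.88 and 0.87 with all spots. Of the genes of these chromosomes, 3.78% and 4.95% were called with all spots. Of the highest keratin sets, 23 hold a surrogate, 7 hold surrogates only, and 13 have an SD over probes larger than the set mean.

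**Figure D1:**
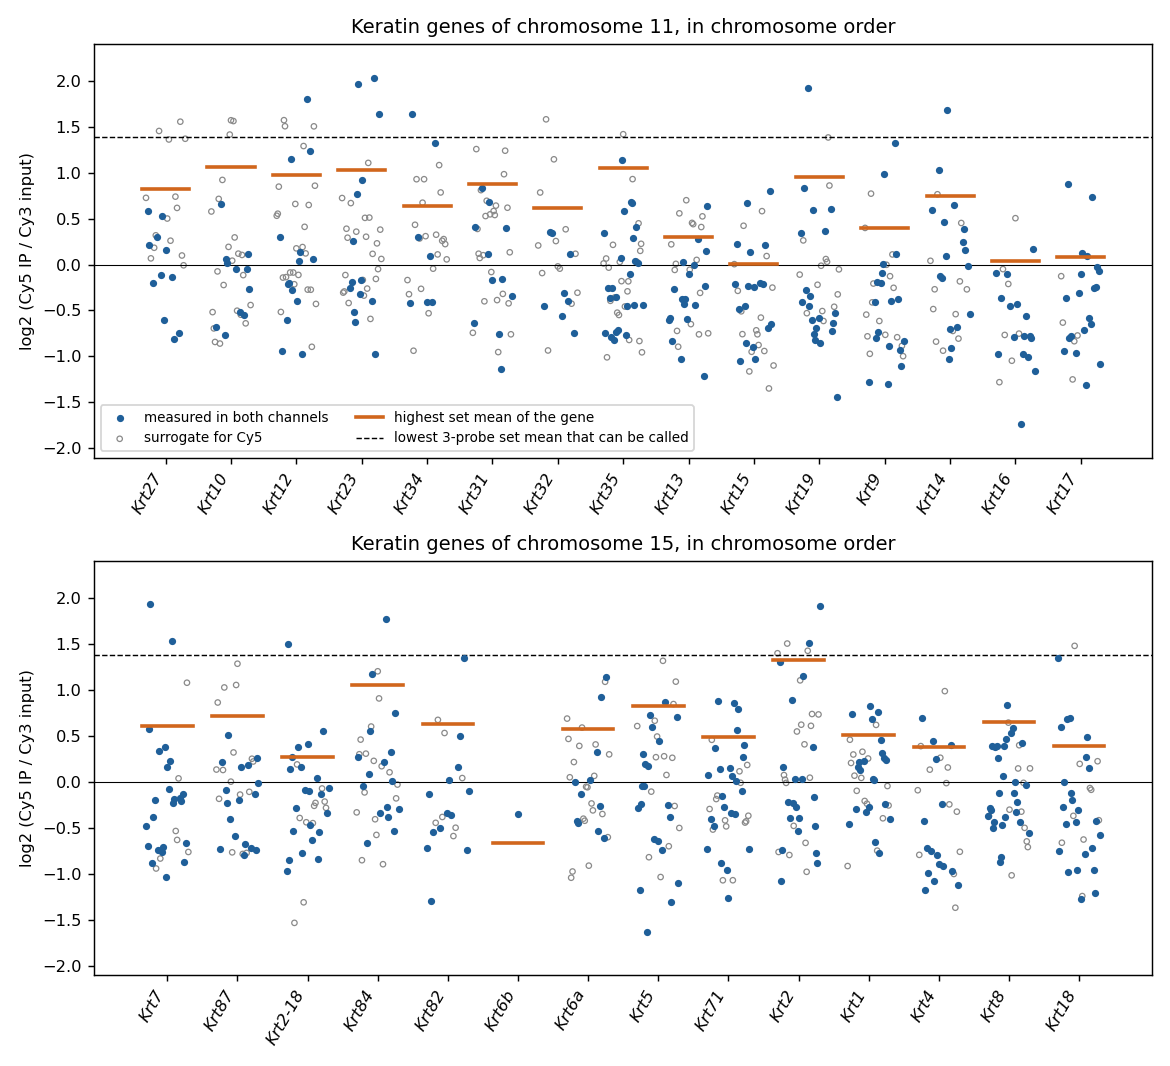
Log2 ratio of immunoprecipitate over input (vertical axis) for the 919 probes of the 29 keratin genes, placed by gene in chromosome order, with filled points for probes measured in both channels, open points for surrogates, orange bars for the highest set mean of each gene and a dashed line at 1.38, the lowest mean at which a set of 3 probes could be called. No orange bar reaches the line, and single probes above it stand in many genes; Krt6b has 1 probe of its own, and its set takes in a neighbouring probe named for Krt6a.

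Among the simple epithelial keratins, Krt8 lay near the middle of the family and its filament partner Krt18 in the lower part. The 3 probes of the highest Krt8 set read 0.47, 0.83 and 0.64, the last a surrogate, for a set mean of 0.65 ± 0.18 (SD, 3 probes), centred at -1107 bp. These probes lie close together, and none of the 40 Krt8 probes exceeded 0.83. For Krt18, the 3 probes read 1.35, -0.76 and 0.59, for a set mean of 0.39 ± 1.07 (SD, 3 probes), centred at -4794 bp. The spread among the Krt18 probes exceeds their mean, and the probe in the middle of the set is the negative one. Neither gene was called with all spots, where the set means correspond to 1.57-fold and 1.31-fold excesses, or with measured spots, where the highest set means were 0.83 and 0.58.

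Krt7 and Krt19, a second pair of simple and ductal epithelia, gave 0.60 ± 1.31 and 0.95 ± 0.40 (SD, 3 probes each). The probes of the Krt7 set read -0.70, 0.58 and 1.93, all measured, so 1 high probe carries the mean. The probes of the Krt19 set read 1.38, 0.86 and 0.61, of which the first and second are surrogates. Krt19 is therefore even along its set but mostly unmeasured in Cy5. Krt23, a less studied type I keratin, reached 1.03 ± 0.83 (SD, 3 probes), centred at -433 bp. The 5 simple epithelial genes had a median of 0.65.

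Krt5 and Krt14, the pair of the basal epidermal layer, gave 0.82 ± 0.52 and 0.75 ± 0.83 (SD, 3 probes each). The Krt5 probes read 1.32, 0.28 and 0.86, with surrogates at the first and second, and the set is centred at -2384 bp. The Krt14 probes read 0.46, 0.09 and 1.68, all measured, centred at -1961.5 bp. Both sets lie well upstream of the start, and each is uneven. Krt1 and Krt10, the pair that replaces them as cells leave the basal layer, gave 0.51 ± 0.42 and 1.06 ± 0.75 (SD, 3 probes each). The Krt1 probes, all measured, read 0.82, 0.69 and 0.03. The Krt10 probes read 0.19, 1.41 and 1.57, and all 3 are surrogates; with measured spots the highest set mean of Krt10 was 0.22. The second highest value of the family thus belongs to a set where the immunoprecipitate signal was not above background at any probe.

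Krt2, a type II keratin of the upper epidermis, had the highest set mean, 1.32 ± 0.84 (SD, 2 probes), a 2.50-fold excess. Its probes read 0.73, a surrogate, and 1.92, the probe with CTTTGAA printed above, and the set is centred at -5374 bp. A set of 2 probes could not be called below 1.69, and the rule also asks for single probes that are high enough. With measured spots Krt2 reached 1.13. Krt84, a type II keratin of the hair shaft and tongue, had 1.05 ± 0.21 from 2 surrogates that read 1.20 and 0.91. Krt10, Krt84, the hair keratin Krt35 (1.05) and Krt23 (1.03) differ by less than the SD over the probes of any of their sets.

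At the other end of the family, Krt16 and Krt15 gave 0.04 ± 0.66 (SD, 2 probes) and 0.01 ± 0.22 (SD, 3 probes). Krt16 is a keratin of wounded and hyperproliferative epidermis, and Krt15 marks basal and follicle stem cells. The Krt16 probes read 0.50 and -0.43, and the Krt15 probes 0.00, -0.21 and 0.23. Krt16 also had the lowest median probe of the family, -0.77 over 23 probes, followed by the neighbouring gene Krt17 with -0.58 over 25. Krt6b, an inducible partner of Krt16, had 1 probe of its own at -0.36 and gave -0.67 ± 0.44 together with the adjoining Krt6a probe at -0.98. In 21 of the 29 genes the median probe was below 0, the highest medians being 0.26 for Krt27 and Krt34. The median of these gene medians was -0.17, beside -0.06 over all genes of array 2. Over the genes of chromosomes 11 and 15 it was -0.19 and -0.18, close to the keratin value in this setting. With the GC trend subtracted from all spots it was -0.03 for the keratins, beside -0.12 and -0.11 for these chromosomes.

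By class, the 14 keratins of stratified epithelia had a median highest set mean of 0.45, the 7 of the hair shaft 0.71 and the 2 of the inner root sheath 0.66. The 16 type I genes had a median of 0.69 and the 12 type II genes 0.62. Differences between the classes were not tested. With measured spots the order of the types turned, with 0.58 for type I and 0.69 for type II.

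Keratin probes, taken singly, had a median of -0.13 and quartiles of -0.55 and 0.30, and 6.2% of them exceeded 1, beside 17.7% of all array 2 probes. With measured spots, the shares were 7.6% and 13.8%. At the low end, 4.9% of keratin probes and 7.18% of array 2 probes were below -1. The only keratin probe above 2 with all spots belongs to Krt23 (chr11:99606168-99606225, centred at -4037.5 bp). It read 2.03 between neighbours at 0.12 and -0.97, which gave a set mean of 0.39.

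The base composition of the probes moved with these values. The median GC content of the keratin probes was 42.6%, beside 40.4% for array 2. On array 2, the median ratio was 1.45 for probes of 20 to 30% GC, -0.35 for 40 to 50% and 1.05 for 70 to 80%. Of the probes in these ranges, 4.6%, 64.5% and 99.4% were measured in both channels, so the low end is mostly surrogates. With measured spots the medians were 0.96 (254 probes), -0.19 and 1.23. Of the 919 keratin probes, 487 (53%) fall between 40 and 50% GC, where their median was -0.31, and on array 2 this range holds 37.4% of the probes. Between 30 and 40% GC lie 31.4% of the keratin probes, with a median of 0.14, and 44.8% of the array 2 probes, with 0.27. In this range 21.8% of the keratin and 20% of the array 2 probes were measured, with medians of 0.30 and -0.01. The ends hold few probes of either: 0.435% of keratin and 2.37% of array 2 probes lie below 30% GC, and 0 keratin and 1.1% of array 2 probes at 70% or above. Between 60 and 70% GC, 22 keratin probes had a median of 0.05, beside 0.46 on array 2.

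**Figure D2:**
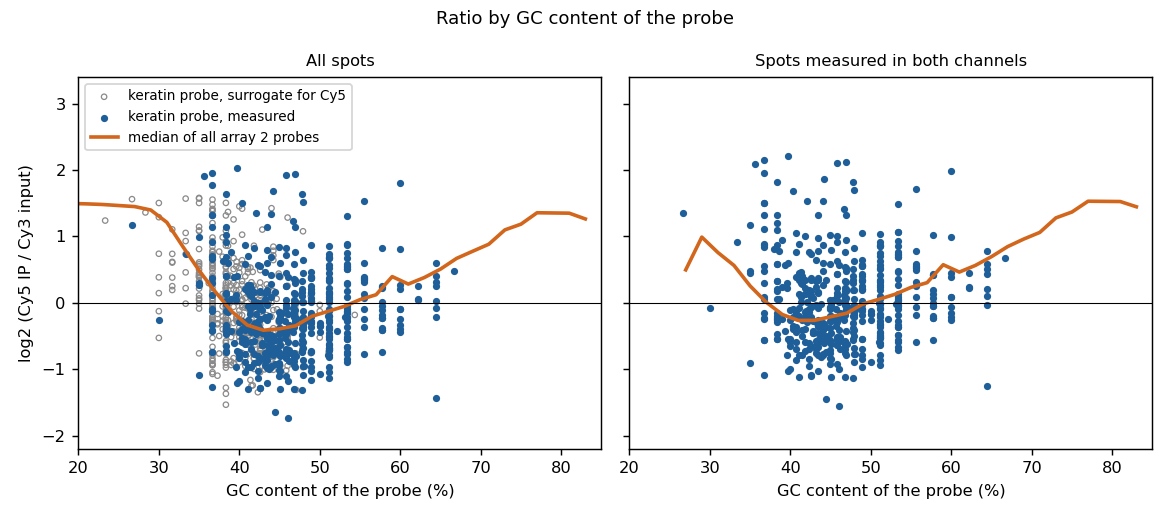
Log2 ratio of immunoprecipitate over input (vertical axis) against the GC content of the probe in percent (horizontal axis), for all keratin probes on the left and for those measured in both channels on the right, with surrogates as open points and the median of all array 2 probes per 2% of GC as an orange line. The array median is high at both ends and lowest between 40 and 50% GC, where 487 of the 919 keratin probes lie.

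When the median ratio of each 2% bin of GC content was subtracted, the keratin genes lay level with the array by their highest set means. Their median highest set mean was 0.81 with all spots, beside 0.83 for all genes of array 2, and 0.76 with measured spots, beside 0.75. The genes of chromosomes 11 and 15 had medians of 0.74 and 0.79 with all spots, and 0.71 and 0.75 with measured spots. Of the 29 genes, 25 had a higher value than without the subtraction, with all spots. The share of array 2 genes above the keratin median was 78.8% with all spots, 66.4% with measured spots, and 52.4% and 49.2% after the subtraction. Above the highest keratin gene lay 33.4% with all spots, 8.73% with measured spots, and 8.1% and 6.59% after the subtraction. Single high probes stayed scarcer in the keratins after the subtraction. Of keratin probes 7.07% exceeded 1, beside 10.3% on array 2, and with measured spots 8.62% beside 11.8%. The highest set mean is a maximum over the sets of a gene. Keratin genes had a median of 33 probes in sets, beside 28 on array 2, and 17 beside 13 with measured spots. How much of the lower keratin level comes from base composition was not tested.

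**Figure D3:**
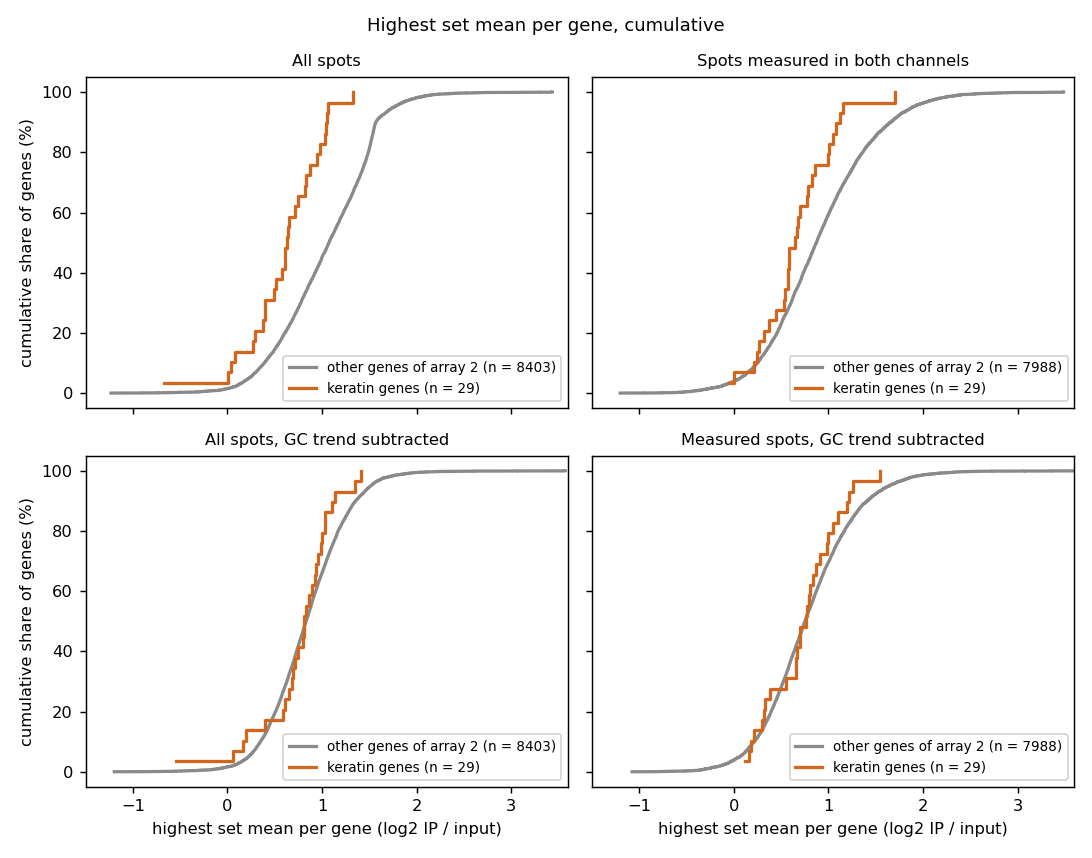
Cumulative share of genes in percent (vertical axis) by highest set mean per gene in log2 units (horizontal axis), for the 29 keratin genes in orange and the other genes of array 2 in grey, in 4 settings. With all spots the keratin line lies to the left, with medians of 0.63 and 1.07, and after subtraction of the GC trend the lines run together, with medians of 0.81 and 0.83.

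With the GC trend subtracted, 1 of 29 keratin genes was called in each version, and it was not the same gene. With all spots it was Krt2, where 4.52% of array 2 genes were called. The called Krt2 set is another than the one above. Its probes, at -3313.5, -3509.5 and -3646 bp, read 1.82, 1.86 and 0.38 after subtraction, for a mean of 1.35 ± 0.84 (SD, 3 probes), and the first and last are surrogates. With measured spots it was Krt23, where 8.06% of array 2 genes were called. The highest of its sets held probes at 2.39, -0.61 and 2.00 after subtraction, for a mean of 1.26 ± 1.63 (SD, 3 probes), and its middle probe met the rule through the 2 beside it. A second called Krt23 probe read 2.14 in a set with a mean of 1.13 ± 1.00 (SD, 3 probes). With these shares on the array, 1 call among 29 genes is near the background. Before the software's dye normalization the count was also 1 (Krt23), where 20.6% of array 2 genes were called. With normexp background correction it was 11, where 54.5% were called, and with the intensity trend subtracted it was 23, where 78.3% were called.

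Krt12, the keratin of the corneal epithelium, had the highest set mean of the family with measured spots, 1.70 ± 0.40 (SD, 2 probes), from probes at 1.98 and 1.42 centred at -3300 and -4246 bp. That mean passed the limit for a set of 2 measured probes, but Krt12 was not called, since the rule also asks for single probes that are high enough. With all spots its highest set was another one, 0.98 ± 0.97, made of 3 surrogates.

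The keratin clusters were also counted as a whole. The span of the members on chromosome 11 (chr11:99457633-100371965, 914 kb) holds 805 probes, and that on chromosome 15 (chr15:101393489-102016714, 623 kb) holds 741, including probes of genes under other names. No probe in either was called with all spots, beside 0.206% and 0.247% of the probes of the whole chromosomes. With measured spots there were also 0 calls in either, among 285 and 418 probes, beside 1.05% and 1.1% of the chromosomes. The highest set means inside the spans were 1.65 and 1.54, with all spots. The calls with the GC trend subtracted were those of Krt2 and Krt23 given above, 1 probe of 741 on chromosome 15 with all spots and 2 of 285 on chromosome 11 with measured spots. The shares over the whole chromosomes in those settings were 0.142% and 0.536%.

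At the start sites themselves, 18 of the 29 genes had a probe that matched their RefSeq promoter window exactly, 250 bases before to 50 after the start, through 28 probes. The mean value per gene in the window had a median of -0.06, and 7 of the 18 were above 0. Over 5175 array 2 genes matched in the same way, the median was 0.20, and 61.5% were above 0. With measured spots the medians were -0.08 over 11 keratin genes and 0.37 over 4283 genes. With the GC trend subtracted they were -0.16 and 0.16 with all spots, and -0.25 and 0.19 with measured spots. The keratin value at the start was thus below that of the array in all 4 settings. The median highest set mean was below that of the array with all spots and with measured spots. With the GC trend subtracted it was close, 0.81 beside 0.83 with all spots and 0.76 beside 0.75 with measured spots.

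Krt8 had 1 matched probe, at -0.47 and measured. Krt18 had 2, at -0.79 and 0.26, both measured, the latter centred at -15.5 bp. The probe of Krt7 read -0.08. For Krt5 the probes read 0.73 and, nearest the start, -0.82, a surrogate. For Krt14 they read 0.76 and, nearest the start, -0.84, both surrogates. The highest was Krt32, a hair keratin, at 1.15 from 1 surrogate.

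**Figure D4:**
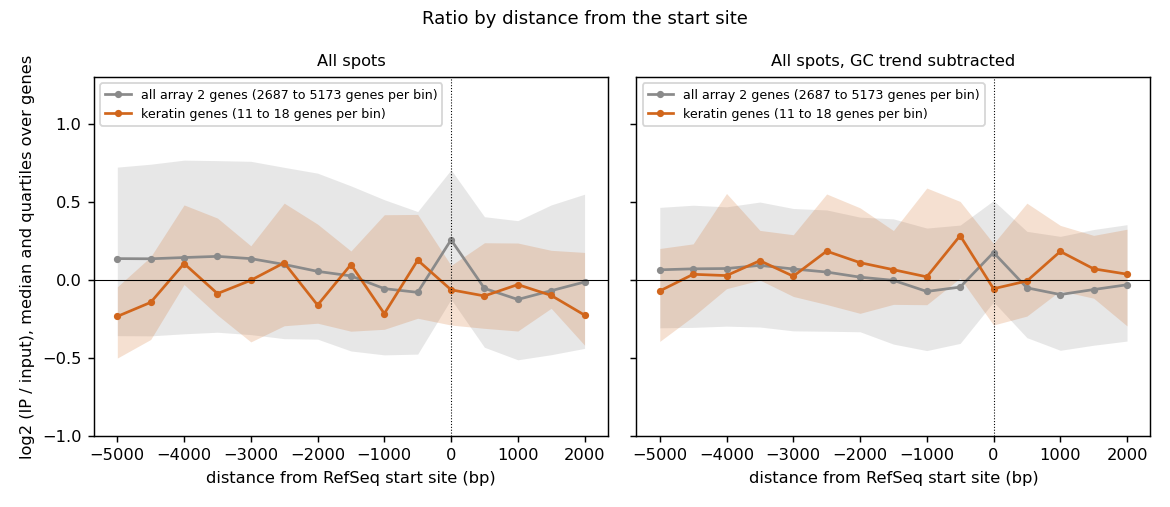
Median log2 ratio over genes, with shaded quartiles (vertical axis), in bins of 500 bp by distance from the RefSeq start site in bp (horizontal axis), for keratin genes in orange and all array 2 genes in grey, with all spots on the left and with the GC trend subtracted on the right. The grey line rises at the start, to 0.26 and 0.18, and the orange line does not, with -0.06 on both sides.

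Counted by distance in bins of 500 bp, array 2 genes had a median of 0.26 at the start site over 5173 genes, between -0.08 and -0.05 in the bins on either side. The keratin genes had -0.06 over 18 genes, between 0.13 and -0.10. After subtraction of the GC trend, the array 2 median at the start was 0.18 and the keratin median -0.06. With measured spots the array 2 median was 0.43 at the start, between -0.01 and 0.12, and the keratin median was 0.13 over 14 genes, between 0.17 and 0.20.

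The 250 bases before the start of Krt8 and Krt18 are printed from RefSeq, build GRCm38.p6, because they show which bases around these starts the probes could read. They are written in the direction of transcription, Krt8 on the minus and Krt18 on the plus strand, and capitals mark the bases covered by array probes, 48 and 83 of 250.
Krt8, chr15:102004343-102004592: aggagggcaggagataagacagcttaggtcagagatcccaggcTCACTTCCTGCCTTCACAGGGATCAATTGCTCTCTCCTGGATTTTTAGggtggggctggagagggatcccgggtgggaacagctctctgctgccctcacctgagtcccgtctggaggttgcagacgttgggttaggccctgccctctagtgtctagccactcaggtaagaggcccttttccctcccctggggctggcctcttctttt
Krt18, chr15:102027966-102028215: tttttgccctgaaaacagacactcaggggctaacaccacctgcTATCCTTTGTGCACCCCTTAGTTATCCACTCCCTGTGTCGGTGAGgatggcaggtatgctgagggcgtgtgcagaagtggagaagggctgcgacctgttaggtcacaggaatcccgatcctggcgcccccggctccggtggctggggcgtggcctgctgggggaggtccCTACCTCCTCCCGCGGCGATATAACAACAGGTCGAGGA

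The 19 RefSeq windows of member genes, which cover 18 of the 29 genes, held a median of 4 CpG in the 250 bases before the start, from 1 to 16, beside 6 over 32851 windows of all genes. Their median GC content was 48.4%, beside 52.4%. Krt7 had the most with 16 CpG, followed by Krt18 with 12, while its partner Krt8 had 3. The start probes of Krt7 and Krt18, given above, were not among the highest.

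Matches to any of the 4 motifs, CTTTGAA and its variants ending in AT, TA and TT, searched on both strands, occurred in 59 of 919 keratin probes (6.42%) and in 5.71% of array 2 probes. Keratin probes with a motif had a median ratio of 0.03, and those without had -0.15. Over array 2 the medians were 0.08 and -0.01. With the GC trend subtracted, they were 0.15 and -0.02 for the keratin probes, and 0.02 and -0.0012 over array 2. The motifs differed among the keratin probes, without the subtraction. The median was 0.18 with CTTTGAA (21 probes), 0.40 with CTTTGAT (7), -0.03 with CTTTGTT (21) and -0.21 with CTTTGTA (12). Keratin probes without CTTTGTA had -0.13, so those with it were lower. Of the 59, 6 exceeded 1, the highest being the Krt2 probe at 1.92. In the 250 bases before the start a motif was present for Krt2, Krt31, Krt32 and Krt34, 4 of 19 windows (21.1%), beside 14.8% of all windows. The letters CGGCGGC went with a median ratio of 2.06 on array 2, and of 1.20 with the GC trend subtracted. They were in 0 of 919 keratin probes and in 0.156% of array 2 probes. The promoter window of Krt7 held them, but no other keratin window did. A match describes the letters of the window only.

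Groups of genes near the keratins in name or annotation were set beside them. A further 15 keratin genes that the array lists under other names, such as Krt20 and Krt222, had a median of 0.97 with all spots and 0.61 with measured spots. In either setting 0 of 15 were called. Among the 15 is Krt88, which shares probes with the member Krt87 and has the same highest set mean in both settings, 0.71 and 0.25. The 24 keratin-associated protein genes of array 2, which encode the matrix between hair keratin filaments, had 1.43 with all spots and 0 calls. The 439 olfactory receptor genes of array 2 with a set, a family silent in most tissues, had 1.51, with 29 called (6.61%). With measured spots the medians were 0.62 over 16 keratin-associated protein genes and 0.67 over 255 olfactory receptor genes, beside 0.65 for the keratins. The median over genes of their median probe GC content was 36.7% and 35% in the 2 families. Genes that kept a set of measured probes had a median of 3 probes in such sets in either family, beside 17 for the keratins.

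**Figure D5:**
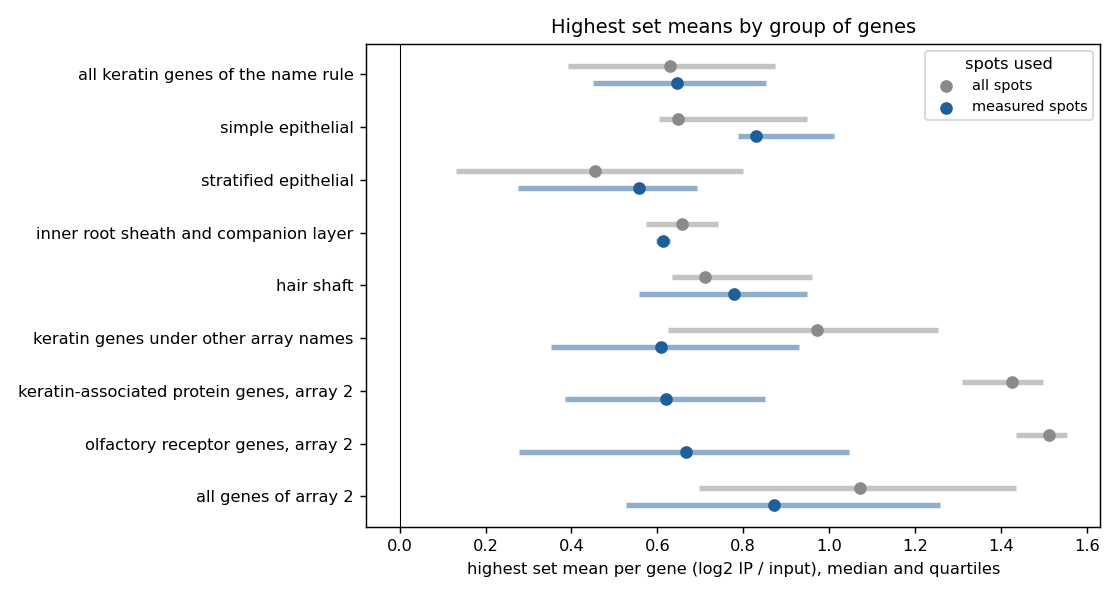
Median (points) and quartiles (bars) of the highest set mean per gene in log2 units (horizontal axis) for classes of keratin genes and for other groups of array 2 (vertical axis), with all spots in grey and measured spots in blue. Keratin-associated protein genes and olfactory receptor genes lie at 1.43 and 1.51 with all spots and at 0.62 and 0.67 with measured spots, beside 0.63 and 0.65 for the keratins.

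Genes that work with keratins were counted from lists chosen for their function, on both arrays, where 25.1% of array 1 genes and 5.5% of array 2 genes were called with all spots. Of 18 genes of other intermediate filaments, 4 were called, the neuronal filament Ina (1.85 ± 0.62) on array 2 and Synm (2.05 ± 0.11, 3 surrogates), Sync (1.91 ± 0.60) and the lens filament Bfsp1 (2.24 ± 1.73) on array 1. Each of these sets has 3 probes. With measured spots, 18.3% of array 1 genes and 12.4% of array 2 genes were called. The count in the list was then 6, these 4 with the neurofilament Nefl and the nuclear lamin Lmnb1. Of the 6, 3 are among the 10 genes on array 2. With the GC trend subtracted from all spots, none of the first 4 was called (Ina 1.40, Synm 0.97, Sync 0.93, Bfsp1 1.05), and the 2 calls were Nefl (1.30) and Lmnb1 (1.46), both on array 2. With it subtracted from measured spots 4 were called, Ina, Nefl, Lmnb1 and Bfsp1. In these settings 21.3% and 21.2% of array 1 genes were called, beside 4.52% and 8.06% on array 2. Vim, the filament of mesenchymal cells, gave 0.81 ± 0.41 (SD, 3 probes) and was not called.

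Of 17 genes of desmosomes and hemidesmosomes, the junctions that anchor keratins, 5 lie on array 1 and 12 on array 2, and 1 was called with all spots, Dsc2 at 1.64 from 3 surrogates. With measured spots 4 were called, Pkp4 (1.79), Itga6 (1.84), Dsg3 (1.84) and Dsc3 (1.58), the first and second on array 1 and the others on array 2. After GC subtraction, Dsg3 was called from all spots (1.56), and Dsg3 (2.06) and Dsc3 (1.71) from measured spots. The plakin Plec (0.75) and the plakoglobin gene Jup (0.51) were not called with all spots. Of 10 cornified envelope genes, 7 on array 1 and 3 on array 2, 3 were called with all spots (Tgm3, Sprr1b and Lce1a1, all on array 1) and 1 with measured spots (Tgm3, an enzyme that cross-links the envelope). After GC subtraction, 3 were called from all spots (Lor, Tgm3 and Sprr1b) and 3 from measured spots (Lor, Tgm3 and Lce1a1). Of 20 regulators of epithelial and epidermal genes, 9 on array 1 and 11 on array 2, 4 were called with all spots and 4 with measured spots. In both settings Grhl3, Ovol1 and the E-cadherin gene Cdh1 were among them, at 1.62, 1.60 and 1.40 with all spots. The gene Ap5b1 has the same values as Ovol1 in all 4 settings, so the Ovol1 values do not tell these genes apart. The fourth called regulator was Esrp1 with all spots, where its highest set is 3 surrogates. With measured spots it was Hoxc13, a regulator of hair keratin genes. With the GC trend subtracted from all spots 5 were called, 4 of them on array 1, and Ovol1 (1.13) was not. With it subtracted from measured spots 9 were called, 5 on array 1 and 4 on array 2, among them Grhl3 (1.83), Cdh1 (1.71), Hoxc13 (1.70) and Ovol1 (1.13). Over all genes of array 1 and of array 2, 25.1% and 5.5% were called with all spots, and 18.3% and 12.4% with measured spots. After GC subtraction the shares were 21.3% and 4.52% with all spots, and 21.2% and 8.06% with measured spots. These lists span both arrays, and their shares are not set against the keratins, which lie on array 2 alone.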

How the data were processed

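Chromatin immunoprecipitate (Cy5) and input (Cy3) were hybridised to 2 promoter arrays. Per the file headers, Agilent Feature Extraction 9.1.1.1 produced the values. Its processed signal, as deposited, is an intensity for each dye after background subtraction, detrending and scaling by 1 dye factor, with surrogates where a signal did not exceed background. A log10 ratio was deposited too and served as an alternative. The authors' own calls were not used.

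Here log2 of Cy5 over Cy3 was centred on each array's median, leaving out non-uniform spots (9 on array 1 and 18 on array 2). The scale, 0.78 on array 2, is the median size of values below the median times 1.4826. The calling rule asks for an upper-tail normal probability of the set mean below 0.001. It also asks either that the probe itself is below 0.001 and a neighbour below 0.1, or that 2 probes in the set are below 0.005. A gene was called where the annotation of a called probe names it. These probabilities are a calling rule, not a test between samples. The number of arrays limits the precision.

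Current gene names, start sites and promoter windows came from RefSeq tables of GRCm38.p6. Start sites were placed in array coordinates through probes whose sequence matches a window exactly. Analyses used Python 3.11.15, numpy 2.4.6, pandas 2.3.3, scipy 1.17.1, and limma 3.58.1 for normexp. The caller was tested on simulated data, normal scatter with planted runs of high probes. That simulation held no GC trend and no surrogates, so it does not cover their part in the calls.

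Members and lists were chosen with earlier results of these data known. Genes were named by a rule: 4 keratin pairs, members called with all spots, measured spots or GC trend subtracted from measured spots, and the 3 highest and 3 lowest. Krt35, Krt12, Krt32, Krt17, Krt27 and Krt34, and the genes given for the lists, were named after their values were seen. The 13 alternatives changed the spots, signal, trend, thresholds and neighbour distance.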

Additional observations from a re-analysis of the deposited data

How the results depend on the processing

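Of 29 keratin genes, 0 were called in the main setting. The count was 1 with the GC trend subtracted from all spots (Krt2, 1.35), 1 with it subtracted from measured spots (Krt23, 1.26) and 1 with signals before dye normalization (Krt23, 1.59; 20.6% of array 2 genes called). It was 11 with normexp background correction (54.5% of array 2 genes called) and 23 with the intensity trend subtracted (78.3%). It stayed 0 with measured spots, without outlier marks or dim input, with the log10 ratio column, and with the other thresholds and neighbour distance. The cause of these differences was not tested. The median highest set mean ranged from 0.39 to 0.99. Over 14 named genes and 10 settings, 119 of 140 values kept their side of the calling rule and 21 became called, 18 of them under normexp or the intensity trend. The sign of the value changed in 5 of them, none called. Krt16, at 0.04, was -0.05 with measured spots, -0.14 without outlier marks and -0.20 with the log10 ratio column. Krt6b, at -0.67, was 0.0065 among measured spots, or 0.11 once their GC trend was subtracted.

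No paired analysis was possible because each array is 1 sample with its own probes, and there is no replicate to leave out. Surrogates in 47% of keratin probes, and the lack of a control immunoprecipitation, limit the values.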
